A study of Mus musculus with 135 samples.

Results

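The haematopoietic stem cells (HSCs) of 1 old mouse were split by 4 regulators of mitotic entry, *Ccna2*, *Ccnb1*, *Cdk1* and *Cdc25c*, and all other genes were then compared between the cells on either side of the split. A cell is called positive here when at least 1 of the 4 genes had a level above 2, where the level is log2(CPM + 1) and CPM is the gene's share of all reads counted on genes in the cell, scaled to a total of 1000000 reads, and negative when none did. Of 62 old HSCs compared, 13 were positive (21%, 95% exact Clopper-Pearson interval 11.7 to 33.2%) and 49 were negative. These come from 74 old cells in a table of 135 cells, after leaving out 12 old cells that missed the quality limits of the study, 1 of them positive.

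The split was meant to part cycling from non-cycling HSCs, and the other genes bore this name out in a few cells only. Cells C3, D4 and G9 expressed 37, 34 and 30 of 43 S phase genes, while the other 10 positive cells expressed between 6 and 16, against a median of 10 (range 4 to 35) in the negative cells. A difference is the mean level of the positive minus that of the negative cells. The median difference of the S phase genes was 0.80 on the log2 scale over all 13 cells and -0.02 without C3 and D4. It was 0.029 when the 3 positive and 4 negative cells with at least 20 S phase genes were left out together. Among the negative cells, H8, B6, B10 and A4 expressed 35, 31, 27 and 25 S phase genes. The 2 groups are therefore named by the rule and not as cycling and non-cycling.

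The study sequenced single HSCs of young and old mice, taken from bone marrow as live (7AAD-) Lin-Sca-1+c-Kit+ (LSK) CD150+CD48- cells. Each cell was captured on a C1 microfluidic chip, imaged to check that a site held 1 cell, and sequenced from amplified whole-transcript complementary DNA as a library of its own. All cells came from C57BL/6 mice that carry the *Vwf-eGFP* reporter, in which a green fluorescent protein is driven by the *Vwf* locus, at an age of 20 to 25 months for the old and 2 to 3 months for the young mouse. Each age is 1 mouse, so no test between cells was made, and intervals on shares and read counts cover counting error only.

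Cells duplicate their DNA in S phase, with the MCM helicase, the clamp PCNA and enzymes that make deoxynucleotides, and divide it in mitosis. CDK1, paired with cyclin A2 (*Ccna2*) or cyclin B1 (*Ccnb1*) and activated by the phosphatase CDC25C, drives the entry into mitosis. Most HSCs in the adult marrow rest outside the cycle in G0 and enter it rarely. Genes of the late cell cycle often carry a CCAAT box and a cell cycle homology region (CHR) in their promoters, bound by NF-Y and by the DREAM and MYB-MuvB complexes, and genes of S phase often carry E2F sites.

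The promoters of *Ccnb1* and *Cdk1* are shown because these genes chose 11 of the 13 positive cells. The sequences run from 250 bases before to 50 bases after the start of transcription, are from RefSeq on GRCm38.p6, and lie at chr13:100786437-100786736 (minus strand) for *Ccnb1* and chr10:69352863-69353162 (minus strand) for *Cdk1*. Capitals mark CCAAT or its reverse complement ATTGG, the CHR letters TTTGAA or TTCAAA, and the E2F letters TTTCCCGC, TTTCGCGC, TTTGCCGC and TTTGGCGC or their reverse complements.
Ccnb1: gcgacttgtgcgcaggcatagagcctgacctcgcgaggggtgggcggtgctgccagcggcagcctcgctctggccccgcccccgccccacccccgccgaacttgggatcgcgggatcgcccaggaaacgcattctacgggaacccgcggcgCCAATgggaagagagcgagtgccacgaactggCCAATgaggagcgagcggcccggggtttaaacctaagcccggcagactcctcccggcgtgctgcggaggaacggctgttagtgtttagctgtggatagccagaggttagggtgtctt
Cdk1: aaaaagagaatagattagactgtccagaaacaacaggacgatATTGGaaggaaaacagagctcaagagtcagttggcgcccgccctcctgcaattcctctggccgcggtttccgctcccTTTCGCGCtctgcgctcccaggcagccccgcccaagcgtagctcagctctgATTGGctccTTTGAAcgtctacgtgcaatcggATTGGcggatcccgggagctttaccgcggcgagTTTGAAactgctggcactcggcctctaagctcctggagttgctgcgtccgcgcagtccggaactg
The *Ccnb1* window held 2 CCAAT boxes and no match to the CHR or E2F letters searched. Other forms of the CHR were not searched, so a CHR in this window is not excluded. The *Cdk1* window held 3 CCAAT boxes, 2 CHR matches and 1 E2F match. CCAAT and CHR stood together in 26 of 50 promoters of the G2/M genes (52%), in 4 of 34 of the S phase genes (11.8%) and in 2284 of all 32851 mouse promoters (6.95%). E2F letters were found in 12 of the 34 S phase promoters (35.3%), in 2 of the 50 G2/M promoters and in 2.26% of all. These matches describe the letters in the window and not binding.

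The 4 genes that made the split were seen in few cells and mostly alone (plot of the levels of the 4 genes). *Ccna2* was expressed in C3 and D4 only, at levels of 2.16 and 2.27. *Ccnb1* was expressed in 4 cells, at 8.94 in H6, 6.64 in C8, 3.04 in B7 and 2.16 in H1. *Cdk1* was expressed in 7 cells, at 8.11 in C3, 7.83 in D4, 7.53 in F8, 6.81 in H12, 3.10 in G9, 2.34 in C6 and 2.08 in D6. The kinase was thus the gene that chose most of the cells. *Cdc25c* was expressed in 3 cells, at 10.61 in F10, 2.56 in F8 and 2.28 in F9.

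**Figure D1:**
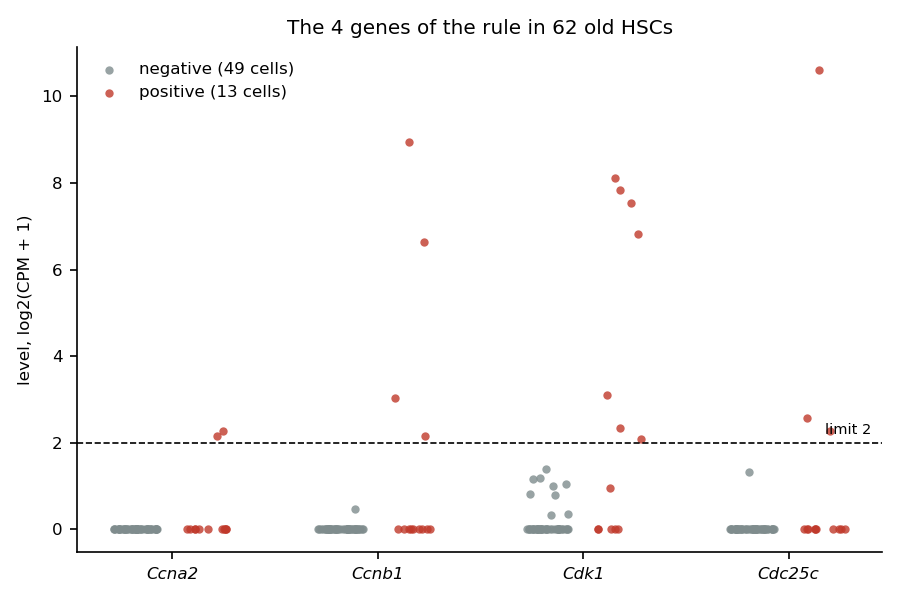
Level, log2(CPM + 1), of the 4 genes that define the split in each of the 62 old HSCs compared, with 1 point per cell and the limit of 2 as a dashed line. *Cdk1* passed the limit in 7 cells and *Ccna2* in 2, and 13 cells passed it for at least 1 gene.

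Of the 13 positive cells, 10 expressed 1 of the 4 genes and 3 expressed 2 of them: C3 and D4 had *Ccna2* with *Cdk1*, and F8 had *Cdk1* with *Cdc25c*. No old cell expressed 3 or 4. In the young mouse, split by the same rule, 27 of 52 cells were positive (51.9%, interval 37.6 to 66%), with 12, 7, 3 and 5 cells expressing 1, 2, 3 and 4 genes.

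Several positive cells lay close to the limit. The lowest levels inside it were 2.16 for *Ccna2*, 2.16 for *Ccnb1*, 2.08 for *Cdk1* and 2.28 for *Cdc25c*, and the highest outside it were 0, 0.47, 1.39 and 1.33. Of the 13 cells, 5 were chosen by fewer than 20 reads of the 4 genes: 18 in B7, 12 in F9, 7 in C6, 6 in D6 and 1 in H1. At the other end F10 had 4950 such reads, nearly all of them *Cdc25c*. H1 had 289282 reads on genes in all, so that a single read set it above the limit. Of the negative cells, 11 had at least 1 read of the 4 genes. When each cell was thinned to 250000 reads, all 13 cells stayed positive and 5 negative cells became positive. At that depth a single read passes the limit in every cell, so the thinned rule asks only for a read of any of the 4 genes.

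Depth was similar in both groups. Reads on genes ranged from 289282 to 3176640 in the positive cells (median 2298859) and from 276316 to 4086659 in the negative cells (median 2096724). The median number of genes expressed was 3760 in the positive and 3939 in the negative cells. It was 4049 and 4230 after thinning, where a single read counts a gene as expressed. The number ranged from 3450 to 6267 in the positive and from 2964 to 6226 in the negative cells, and the highest after thinning were 6052 and 6092. At ordinary depth C3 and D4 lay well above the medians with 5583 and 5610 genes, as did the negative cells H8 with 5927 and B6 with 5146. No doublet caller was run, and the part of the higher gene number in the results for these cells was not tested.

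The surface genes of the sort were seen in both groups. *Kit* was expressed in 12 of 13 positive and 49 of 49 negative cells, *Cd48* was listed at 0 reads in all 62 cells, and *Slamf1*, which encodes CD150, was expressed in 1 and 14 cells. Of 50 marker genes of B cells, T and NK cells, macrophages and dendritic cells, neutrophils, late erythroid cells, stroma and endothelium, 18 had a read in the old cells compared, 0 were higher by at least 1, the size used throughout for counting a gene, and *Emcn* alone was lower by at least 1 (difference -1.08), beside 8.31% and 5.31% of all genes. Both groups expressed a median of 3 of them per cell (1 to 7 in positive and 1 to 8 in negative cells), and their summed level ranged from 5.45 to 37.1 and from 4.35 to 35.3. *Vpreb1*, *Cd4*, *C1qa*, *Hba-a1*, *Cxcl12* and *Col1a1* are examples of the markers with no read in any old cell compared. Other markers did have reads, among them *Lepr*, whose gene overlaps *Leprot*, in all 62 cells, *Cd79b* in 5 positive and 11 negative cells, at 8.90 in H12, 8.63 in F8 and 7.70 in B7, and *Nkg7* in 4 and 11 cells, at 9.04 in D4. The difference of *Cd79b* was 0.94, and 1.43 without C3 and D4. F8 expressed 3 neutrophil markers. *Pecam1* was at 10.91 in F9, 6.42 in D4 and 6.40 in the negative A4, and *Cd3d* was at 3.42 in C8. The part of these transcripts in the results was not tested. None of 4 Y-linked genes was expressed in 1 positive cell, F8, and 3 negative cells, and *Xist* was expressed in 2 and 6 cells. The Y-linked *Ddx3y* had a difference of -1.54 between the groups, positive minus negative.

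Both cell-cycle lists were higher in the positive cells over all 13 cells. Of 14136 genes with a read in the old cells compared, 1175 were higher by at least 1 (8.31%) and 751 were lower by at least 1 (5.31%), with a median of -0.01. Of 43 S phase genes 15 were higher by at least 1 and 2 were lower, and of 51 G2/M genes with a read 14 were higher and 0 were lower, with medians of 0.80 and 0.50. In the young mouse, where 14.1% of 13995 genes were higher by at least 1 and 2.69% lower, the medians of the 2 lists were 1.71 and 1.97. The difference between the mice was not tested.

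These values depended on C3 and D4. Without C3 and D4, 6 S phase genes were higher and 4 lower by at least 1, and 5 G2/M genes were higher and 3 lower, and the medians came to -0.02 and 0.00028. The background without these cells was 7.35% higher and 8.28% lower. Without C3 alone the medians were 0.47 and 0.13, and without D4 alone they were 0.54 and 0.37. Without G9 as well as C3 and D4 the S phase median was -0.23. These cells were left out because of their own high counts, which lowers the medians by itself, while negative cells with as many S phase genes stayed in. With the cells of at least 20 S phase genes taken from both groups, 10 positive and 45 negative cells were left, and the medians were 0.029 and 0.090.

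The number of genes expressed per cell was compared as well (plot of S phase against G2/M genes). The positive cells expressed a median of 10 of 43 S phase genes (6 to 37) and 19 of 52 G2/M genes (13 to 46). The negative cells expressed a median of 10 (4 to 35) and 16 (11 to 37). The median of 19 G2/M genes was the same without C3 and D4, and 9 of 13 positive cells lay above the negative median of 16. The groups overlapped over nearly the whole range, and only C3 had more genes of either list than the highest negative cell. At least 20 S phase genes were expressed in 3 of 13 positive cells (23.1%, 5.04 to 53.8%) and 4 of 49 negative cells (8.16%, 2.27 to 19.6%). After thinning to equal depth, where a single read counts a gene as expressed, the medians were 12 and 11 S phase genes and 19 and 17 G2/M genes.

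**Figure D2:**
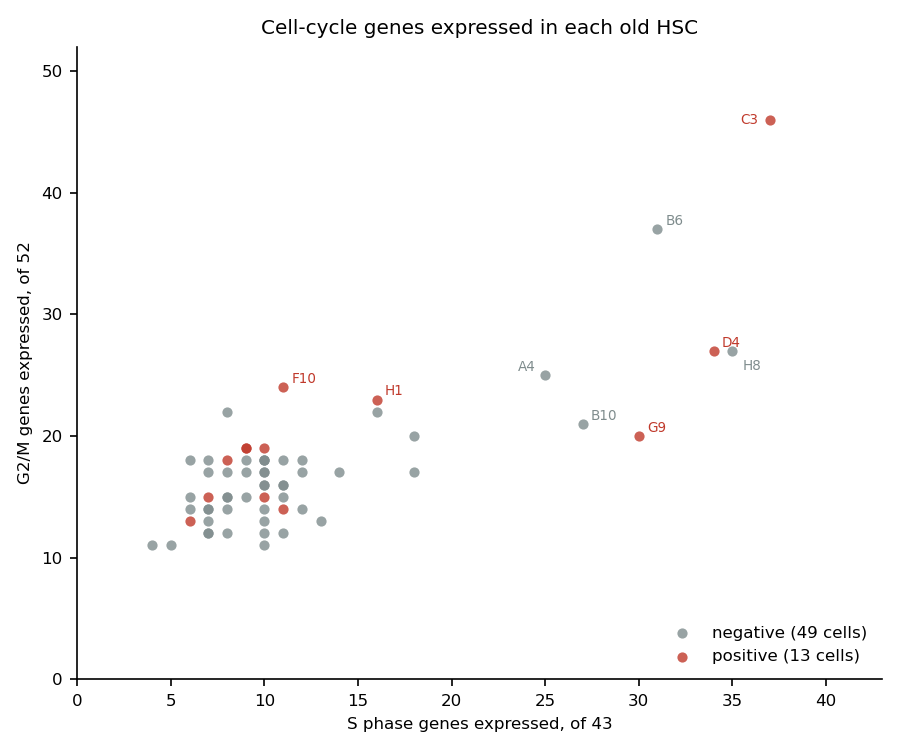
Number of S phase genes (of 43) and G2/M genes (of 52) expressed in each old HSC, with 1 point per cell and the cells with at least 25 S phase genes, F10 and H1 named. C3, D4 and G9 are the only positive cells with at least 20 S phase genes, and the negative cells H8, B6, B10 and A4 lie beside them.

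Single cells differed in which part of the cell cycle their transcripts covered. The genes of the next 4 paragraphs were picked as textbook members of the lists after their values were seen, and their levels are shown in the plot of replication and mitosis genes.

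C3 expressed genes of replication and of mitosis together. Of the 6 MCM helicase genes it expressed 5, with *Mcm7* at 9.74, *Mcm5* at 8.70 and *Mcm2* at 0. Its level of *Top2a*, the topoisomerase that untangles sister chromosomes, was 10.61 and that of the proliferation marker *Mki67* was 9.25. It was the only one of the 62 cells that expressed *Plk1* (7.13), a kinase of mitosis, and it also expressed the checkpoint kinase *Bub1* (7.81), the kinesin *Cenpe* (8.07), *Aurkb* (6.90) and *Ccnb2* (5.76). With 46 of 52 G2/M genes it was highest of all 62 cells.

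D4 and G9 expressed the replication genes but had no read of several kinases and motors of mitosis. Both expressed all 6 MCM genes, from 7.53 to 10 in D4 and from 2.26 to 10.75 in G9. *Uhrf1*, which couples DNA methylation to replication, was at 10.08 and 10.41, and *Pcna* at 9.64 and 10.41. *Aurkb*, *Plk1*, *Bub1*, *Cenpe* and *Ccnb2* were at 0 in both cells. The 2 cells nevertheless expressed 27 and 20 of the 52 G2/M genes, with *Cenpf* at 7.06 and *Birc5* at 6.47 in D4. *Top2a* was at 6.03 and 9.50, and *Mki67* at 3.80 and 6.65.

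F10 expressed some of the genes of mitosis that had no read in D4 and G9, and few of replication. It expressed 24 G2/M genes and 11 S phase genes, with *Cenpe* at 10.06, *Cenpf* at 8.31, *Mki67* at 7.45, *Birc5* at 7.02, *Bub1* at 6.39 and *Ccnb2* at 3.20. *Pcna*, *Uhrf1*, *Mcm2* and *Top2a* were at 0 in this cell, and *Rrm1* was at 10.51. The other 9 positive cells expressed between 0 and 3 of the 6 MCM genes, as did most negative cells. F8, with *Cdk1* at 7.53 and *Cdc25c* at 2.56, expressed 6 S phase and 13 G2/M genes, the fewest of any positive cell in both lists.

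Of the negative cells, B10, H8 and B6 had high levels of several of the same replication genes. B10 and H8 expressed all 6 MCM genes, from 6.51 to 10.46 and from 5.82 to 9.78. B6 expressed 4 of them, with *Mcm2* at 1.29 and *Mcm4* at 1.67, and the negative cells B2 and B3 expressed 6 and 5. B6 had *Mki67* at 11, *Top2a* at 10.32, *Birc5* at 9.63 and *Rrm2* at 8.26, and 37 G2/M genes, with 1 read of *Cdk1*. H8 had 2 reads of *Cdk1*, and B10 and A4 had none of the 4 genes. A4 and B10 were shallow, with 276316 and 465090 reads on genes, and in A4 a single read reaches the limit of 2. The thinned counts of S phase genes were 35 in H8, 32 in B6, 28 in B10 and 24 in A4, beside 37 in C3, 34 in D4 and 31 in G9. After thinning a single read passes the limit in all of these cells. The thinned counts thus put the cells at equal depth but do not show more than single reads.

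**Figure D3:**
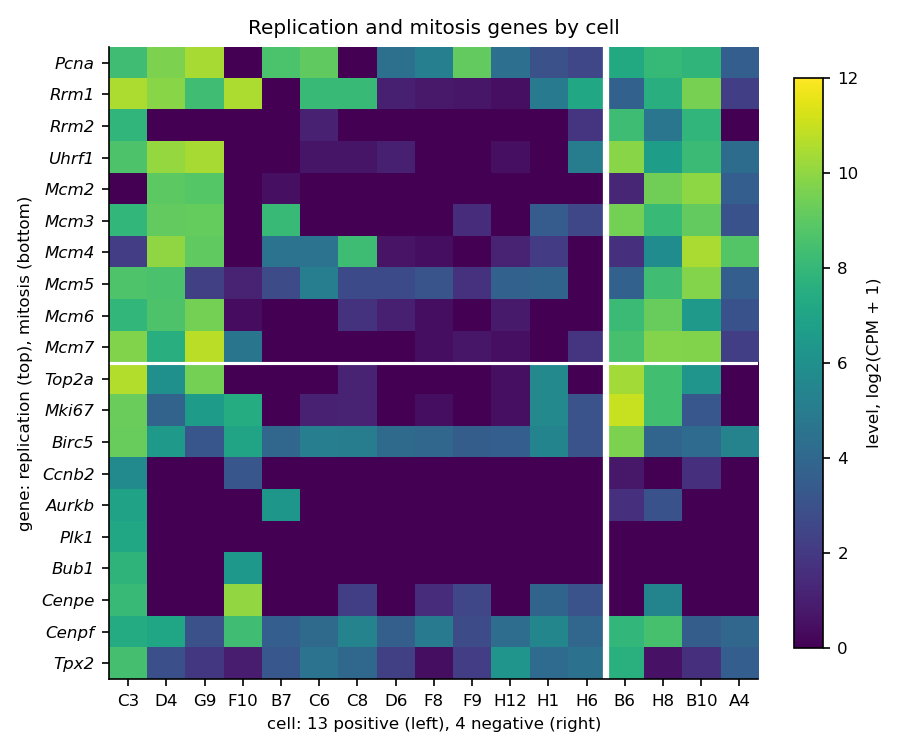
Level, log2(CPM + 1), of replication genes (top) and genes of mitosis (bottom) in the 13 positive cells (left of the white line) and the 4 negative cells with at least 25 S phase genes (right). C3, D4, G9, B6, H8 and B10 share high levels of replication genes such as *Mcm7*, from 7.53 to 10.75, and *Plk1* is above 0 in C3 alone.

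Of the S phase genes, *Rrm1* and *Pcna* had the largest differences. *Rrm1* (chr7:102441695-102469771, GRCm38.p6), the large subunit of ribonucleotide reductase, ranged from 0 to 10.51 with a median of 7.21 in the positive cells and from 0 to 9.78 with a median of 1.05 in the negative cells. It was expressed in 8 of 13 and 16 of 49 cells, with a difference of 3.34 (SD over cells 4.22 and 2.68) and of 2.48 without C3 and D4. *Pcna*, the sliding clamp, was expressed in 11 of 13 and 22 of 49 cells, with medians of 5.19 and 1.56 and a difference of 2.60 (2.01 without the 2 cells).

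The differences of the next members shrank further without the 2 cells. *Uhrf1* was expressed in 4 of 13 and 6 of 49 cells, with a difference of 1.99 and of 0.80 without C3 and D4. *Rfc2*, of the clamp loader, differed by 1.92 (1.39 without them), and *Tipin*, of the fork protection complex, by 1.76 (0.73). The MCM genes, which mark licensed origins, did not share a direction. Picked after their values were seen, *Mcm5* differed by 0.87, *Mcm2* by 0.45, *Mcm4* by 0.10 and *Mcm6* by -1.06. *Mcm6* was expressed in 3 of 13 positive and 23 of 49 negative cells.

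The largest G2/M differences were in genes with roles beyond mitosis. *Tubb4b* (chr2:25222158-25224702), a beta tubulin, was expressed in 10 of 13 and 17 of 49 cells, with medians of 8.27 and 0.53 (ranges 0 to 9.98 and 0 to 11.12), and differed by 3.84. *Tmpo*, a protein of the nuclear lamina, was expressed in 12 and 30 cells and differed by 2.59, the chromatin insulator *Ctcf* by 2.00 and the histone chaperone *Anp32e* by 1.96. These 4 kept differences of 3.45, 2.07, 1.90 and 2.02 without C3 and D4. *Cks1b*, which binds cyclin-dependent kinases, differed by 1.70 (0.89 without the 2 cells), and *Top2a*, expressed in 4 and 5 cells, by 1.65 (0.60). *Ctcf* was lower in the positive cells of the young mouse (difference -1.23).

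Other lists of the dividing cell had smaller medians, above 0 (plot of list medians). The medians were 0.45 for 35 genes of cohesin, condensin and the centromere, 0.40 for 25 genes of nucleotide synthesis, 0.20 for 27 genes of homologous recombination and the checkpoint, and 0.16 for 24 chromatin proteins of dividing cells. Without C3 and D4 they were -0.06, 0.04, 0.03 and -0.09, and in the young mouse 1.84, 1.08, 0.57 and 1.75. Counts of genes higher by at least 1 were 6, 4, 6 and 7 (17.1, 16, 22.2 and 29.2%, beside 8.31% of all genes). Counts lower were 1, 3, 0 and 1 (2.86, 12, 0 and 4.17%, beside 5.31% of all genes). Without C3 and D4, 4, 4, 2 and 3 were higher and 2, 5, 1 and 3 lower, beside 7.35% and 8.28% of all genes.

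Within these lists single genes stood out. The condensin subunit *Smc2* was expressed in 8 of 13 and 12 of 49 cells and differed by 2.45 (1.63 without C3 and D4), and the cohesin subunit *Smc1a* in 12 and 43 cells and by 1.81. The thymidine kinase *Tk1* differed by 2.19, the recombination mediator *Brca2* by 1.86 and the chromatin protein *Dek* by 2.17. Among the positive cells *Brca2* was expressed only in G9 (9.99), C3 (9.91), D4 (6.20) and B7 (3.70). *Tk1* was expressed only in F10 (9.36), G9 (8.76), D4 (8.40) and C3 (4.76). The histone methyltransferase *Ezh2* differed by 1.90, which turned to -0.60 as a ratio of mean CPM. The nuclear transport GTPase *Ran* went the other way, with 7 of 13 and 41 of 49 cells and a difference of -1.52 (0.020 when at least 2 of the 4 genes were asked for).

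**Figure D4:**
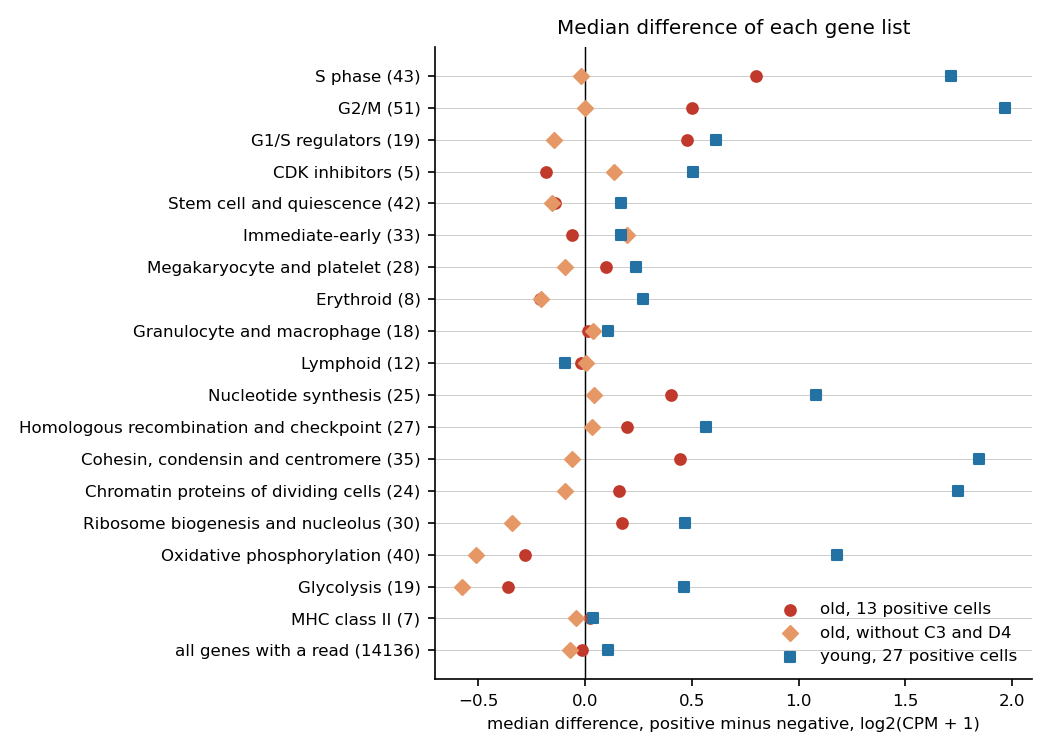
Median over the genes of each list (number of genes with a read in old cells in brackets) of the difference in mean log2(CPM + 1), positive minus negative, for all 13 positive old cells (circles), without C3 and D4 (diamonds) and for the young mouse (squares). The S phase median is 0.80 with all cells, -0.02 without C3 and D4 and 1.71 in the young mouse.

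Regulators of the G1 to S step and inhibitors of the kinases showed few differences of size 1. Of 19 G1/S regulators 1 was higher and 1 was lower by at least 1, near the background of 8.31% and 5.31%, with a median of 0.48 (-0.15 without C3 and D4). The growth regulator *Myc* was expressed in 12 of 13 and 36 of 49 cells and differed by 1.28, and its relative *Mycn* was expressed in 6 and 27 cells and differed by -1.20 (0.95 when at least 2 of the 4 genes were asked for). Of 5 kinase inhibitors with a read, *Cdkn1a* (p21) alone passed 1. It was at 9.51 in D6, 8.43 in H6, 6.58 in F9, 6.38 in D4, 6.29 in C3, 4.59 in C8, 2.16 in H1 and 0 in the other 6 positive cells. That made 7 of 13 cells (53.8%, 25.1 to 80.8%) against 9 of 49 (18.4%, 8.76 to 32%), with a difference of 2.33. *Cdkn1c* (p57), known for holding HSCs at rest, was expressed in 2 and 13 cells (-0.91), and *Cdkn1b* (p27) in 11 and 34 (-0.18).

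Genes of the stem cell state differed in both directions. Of 42 such genes 3 were higher and 6 were lower by at least 1 (7.14 and 14.3%, beside 8.31 and 5.31% of all genes), with a median of -0.14. Without C3 and D4, 6 were higher and 7 lower, beside 7.35 and 8.28% of all genes. *Runx1*, a transcription factor of blood formation, ranged from 0 to 11.11 (median 1.55) in the positive and from 0 to 10.92 (median 6.89) in the negative cells, was expressed in 6 of 13 and 39 of 49 cells and differed by -2.46. *Slamf1* differed by -1.76, the HSC regulator *Mecom*, expressed in 7 and 33 cells, by -1.72, and *Hmga2*, expressed in 3 and 25 cells, by -1.59. *Ly6a* (Sca-1) was expressed in 11 and 32 cells and differed by 1.56. After thinning, with the groups redrawn as 18 and 44 cells, it differed by 0.24. The nuclear receptor *Nr4a1* was expressed in all 13 positive cells and 40 negative cells and differed by 1.60. In the young mouse *Runx1* differed by 0.20 and *Mecom* by 1.17.

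Megakaryocyte and platelet genes, which mark platelet-primed HSCs, had a median difference of 0.10 over 28 genes, with 3 higher and 5 lower by at least 1 (10.7 and 17.9%, beside 8.31 and 5.31% of all genes). *Selp* (P-selectin) was expressed in 6 of 13 positive and 36 of 49 negative cells, with medians of 0.68 and 6.41, and differed by -2.20. *Vwf*, the gene of the reporter, was expressed in 6 and 31 cells, with medians of 1.73 and 6.74, and differed by -1.57. *Nfe2*, a factor of platelet formation, was expressed in 9 and 42 cells and differed by -1.43 (0.062 with a split at 1 read). *Sdpr*, which encodes a caveolar protein, was expressed in 13 and 38 cells and differed by 1.72, but by -0.03 after thinning with the groups redrawn. *Plek* differed by 1.27 (-0.30 with a split at 1 read). The highest level of *Vwf* among the positive cells was 8.36 in H6, and the negative H8 and B10 had 10.38 and 8.45.

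Immediate-early genes, switched on within minutes of a growth signal or of handling, had differences in both directions. Of 33 genes 5 were higher and 3 lower by at least 1 (15.2 and 9.09%, beside 8.31 and 5.31% of all genes), with a median of -0.06 (0.20 without C3 and D4). *Egr3* was expressed in 7 of 13 and 19 of 49 cells and differed by 1.36, *Dusp2* by 1.45 (-0.33 with a split at 1 read of the 4 genes) and *Nr4a2* by 1.32. *Klf4* was expressed in 2 and 24 cells and differed by -1.34, and *Jund*, expressed in 10 and 47 cells, by -1.33. Erythroid, granulocyte and macrophage, and lymphoid genes had medians of -0.21, 0.01 and -0.02, with 0 of 38 genes higher and 1 lower by at least 1.

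The medians of the energy genes were below 0 in the old mouse. Of 40 genes of oxidative phosphorylation 5 were higher and 6 lower by at least 1 (12.5 and 15%, beside 8.31 and 5.31% of all genes). Their median was -0.28 (-0.51 without C3 and D4, 1.18 in the young mouse). *Sdha*, of complex II, differed by 1.58 (-0.16 when at least 2 of the 4 genes were asked for), while *Ndufa4* differed by -1.66. The median of 19 glycolysis genes was -0.36, with *Ldhb*, a subunit of lactate dehydrogenase, expressed in 7 of 13 and 33 of 49 cells (-1.77) and *Pfkl* higher by 1.28. Ribosome biogenesis had a median of 0.17 over 30 genes (-0.34 without C3 and D4). Of these, 2 were higher and 4 lower by at least 1 (6.67 and 13.3%), among the latter *Nop16* (-1.67) and *Fbl* (-1.27, or 1.05 when at least 2 of the 4 genes were asked for). Of 7 MHC class II genes only *H2-DMa* passed 1 (14.3%), with 11 of 13 and 27 of 49 cells and a difference of 2.49.

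The largest differences of all were then ranked without regard to the lists. Of 9069 genes that 10% or more of the old cells expressed, 481 (5.3%) were higher and 567 (6.25%) lower by at least 1 whichever positive cell was left out. Of the 15 largest in the higher direction, 2 belonged to the lists of the cell cycle, replication and dividing chromatin, *Rrm1* and *Tubb4b*, as did 159 of the 9069 genes (1.75%). These genes were taken for their size in this comparison, so their values are a description.

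*Ing1* (chr8:11555762-11563251), a reader of histone methylation, led the higher genes. Its levels in the positive cells were 9.69 in F10, 9.55 in H6, 9.31 in H12, 8.88 in D6, 8.54 in C3, 7.35 in H1, 7.34 in F8, 7.12 in G9, 7.01 in F9, 1.95 in D4, 0.66 in C6 and 0 in B7 and C8. In the negative cells it ranged from 0 to 8.38 with a median of 0.54, and 16 of 49 expressed it, for a difference of 4.06. The 9 cells that expressed it include cells with few and with many S phase genes.

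*Mbtd1*, of a histone acetyltransferase complex, was expressed in 12 of 13 and 20 of 49 cells (medians 7.14 and 0.87) and differed by 3.75. *Ccdc6*, a coiled-coil protein, was expressed in 12 and 24 cells (medians 9.06 and 1.88) and differed by 3.63. Both groups spanned nearly the full range for these genes, so the groups overlapped. *Zfand4* was expressed in 9 of 13 cells (69.2%, 38.6 to 90.9%) and 6 of 49 (12.2%, 4.63 to 24.8%) and differed by 3.47. *Anapc5*, a subunit of the anaphase-promoting complex that ends mitosis, was expressed in 12 and 37 cells (medians 9.01 and 5.35) and differed by 3.15. *Trim33*, a ubiquitin ligase, differed by 3.08, *Gon4l* by 3.01 and *Cklf* by 2.85. The others of the 15, *Rbmxl1*, *Psmg2*, *Zfp330*, *March7* and *Rbm27*, differed by 2.86 to 3.16, and reads of *Rbmxl1* may be shared with *Rbmx*, of which it is a copy.

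*P4hb* (chr11:120560298-120573253), the protein disulfide isomerase of the endoplasmic reticulum, led the lower genes. It was at 10.37 in C3, 7.42 in B7, 5.06 in H12, 4.84 in H1, 2.56 in H6, 2.53 in D4 and at or below 0.71 in the other 7 positive cells. The negative cells ranged from 0 to 11.04 with a median of 8.27, and 40 of 49 expressed it, for a difference of -3.84. C3 was thus the only positive cell above the median of the negative cells. *Fstl1*, a secreted glycoprotein, was expressed in 1 of 13 and 22 of 49 cells (-2.90).

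*Eif3d*, of a translation initiation factor, was expressed in 4 of 13 and 34 of 49 cells (medians 0.50 and 5.60) and differed by -2.77, and *Utp3*, of ribosome assembly, in 2 and 25 cells and by -2.74. *Dctn2*, of dynactin, was expressed in 0 of 13 cells, taken to allow up to 3 cells (23.1%), and in 19 of 49, with a difference of -2.62. *Ash1l*, a histone methyltransferase, differed by -2.78 (0.14 when at least 2 of the 4 genes were asked for), the viral RNA sensor *Ifih1* by -2.78, *Wapal*, which releases cohesin from DNA, by -2.71, *Fkbp3* by -2.70 and the cholesterol exporter *Abcg1* by -2.48. *Fam134b*, *2010111I01Rik*, *1600014C10Rik*, *Ube2d2a* and *Runx1* complete the 15, with -2.73 to -2.46.

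**Figure D5:**
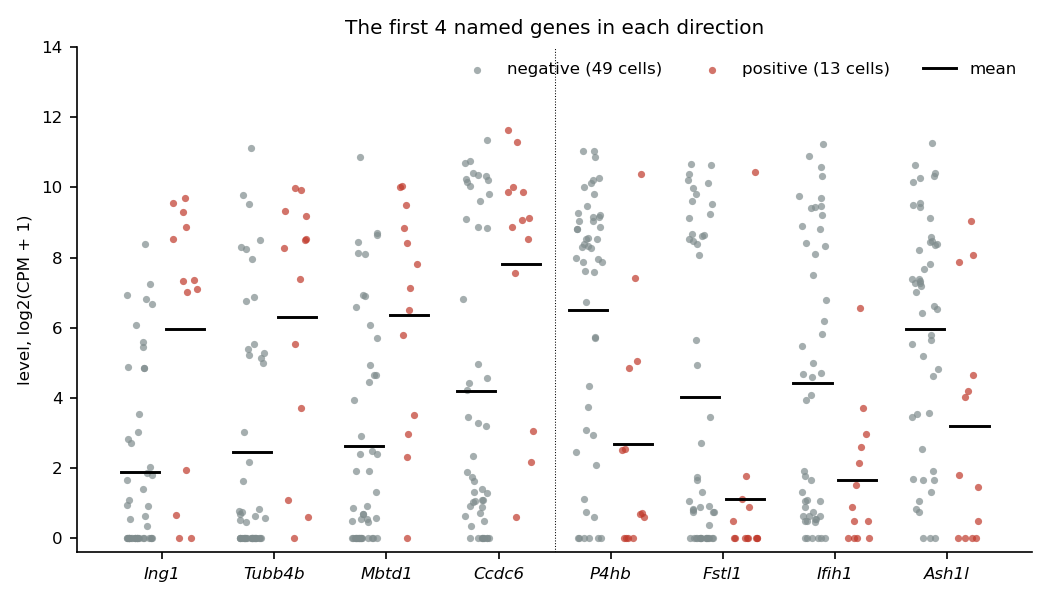
Level, log2(CPM + 1), of the first 4 named genes in each direction, higher in the positive cells left of the dotted line and lower right of it, with 1 point per old HSC and the mean as a bar. The groups overlap for every gene shown, and *P4hb* has means of 2.68 and 6.52.

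In the young mouse the same genes did not all go the same way. Of the 15 higher genes 7 were higher by at least 1 there and 1, *Ccdc6*, was lower (-1.46), with a median of 0.91. Of the 15 lower genes 0 were lower by at least 1 and 5 were higher, with a median of 0.55. Of all genes with a read in the young mouse, 14.1% were higher and 2.69% lower by at least 1. A count of 0 lower among 15 is near that share. The median number of genes expressed was 4614 in the young positive and 3862 in the young negative cells. *Rrm1* differed by 3.60 and *Tubb4b* by 2.01 in the young mouse, *Ing1* by 0.59, *Mbtd1* by -0.04, *P4hb* by 1.34 and *Eif3d* by 2.07. Young and old cells came from different mice, which cannot be told apart from age. Sex-linked transcripts differed too: *Xist* had a median level of 8.76 in the negative and 10.38 in the positive young cells, beside 0.46 in both old groups, and the median number of Y-linked genes expressed was 0 in young and 2 in old cells.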

How the data were processed

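Single HSCs were measured by RNA sequencing. The authors mapped 51 bp single-end reads to mm10 with TopHat2 2.0.10, keeping 1 alignment per read, and deposited the counts per RefSeq gene and cell, without normalization, for 15181 genes in 135 cells. Of the names, 14287 matched a RefSeq symbol and 21 join several genes. Reads of genes that overlap, or that are near copies of each other, may be shared between them, since strand-specific counting is not stated.

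From these counts the CPM of each cell was taken, then the level as log2(CPM + 1), and a difference as the mean of positive minus that of negative cells. A cell expressed a gene at a level above 2. No p-value was computed, since each age is 1 mouse. Shares have 95% exact Clopper-Pearson intervals, except that a share of 0 was taken to allow up to 3 cells. Cells were thinned to 250000 reads with a fixed seed. At that depth a single read gives a level above 2, so an expressed gene is any gene with a read. Differences after thinning used groups redrawn from the thinned counts, 18 positive and 44 negative cells. Numbers of genes per cell after thinning kept the original groups. The calculation of differences was also run on simulated counts with set changes. Its outcome is not reported here, and no value in the text rests on it.

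The members, the gene lists and the tests were chosen with earlier results of these data known. The genes named are the 4 genes of the split, the 15 largest differences in each direction among genes that 10% or more of the 62 cells expressed and that stay at 1 or more with each positive cell left out, and at most 6 members of each list, with further genes where the text says so. Some of these genes are not reported here.

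Alternatives were other rules for the split, a pseudocount of 0.1 CPM, a ratio of mean CPM, TMMwsp factors (edgeR 4.0.16), poscounts factors (DESeq2 1.42.0), thinning, all 74 old cells, cells with at least 1000000 reads, and leaving out each positive cell. The software was R 4.3.3 and Python 3.11.15 with scipy 1.17.1, numpy 2.4.6, pandas 2.3.3 and matplotlib 3.10.9.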

Additional observations from a re-analysis of the deposited data

How the results depend on the processing

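The number of positive cells was 24 with at least 1 read of the 4 genes, 7 with a level above 4, 3 with at least 2 of the genes, and 8 without those chosen by under 20 reads. Genes higher by at least 1 came to 1872 with a level above 4, 3795 with at least 2 genes, 2136 with a pseudocount of 0.1 CPM and 2242 as a ratio of mean CPM. Genes lower by at least 1 came to 1217, 1487, 1542 and 4242 under these settings, 1170 without C3 and D4, 1285 without G9 as well, and 1168 without the cells of both groups with at least 20 S phase genes. With at least 2 genes (C3, D4 and F8), the S phase and G2/M medians were 2.74 and 1.75, with 34 and 27 genes expressed per cell. The S phase median was -0.019 without C3 and D4, -0.23 without G9 as well, and 0.029 without the cells of both groups. The settings without C3, D4 or G9, without the cells of both groups, under 20 reads, or with no Y-linked gene were chosen after seeing the data.

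Leaving out each positive cell in turn gave 1100 to 1328 higher and 756 to 944 lower genes, S phase medians of 0.47 to 0.92 and G2/M medians of 0.13 to 0.52, and medians of -0.20 to -0.04 for stem cell, -0.11 to 0.21 for immediate-early and 0.02 to 0.14 for megakaryocyte genes. The median number of G2/M genes per cell stayed at 19 and that of S phase genes between 10 and 10.5, with 12 positive cells. TMMwsp and poscounts factors shifted the median of all genes by -0.04 and -0.05.

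Single differences changed sign for *Sdpr* when thinned (-0.034), for *Dusp2* (-0.33), *Nfe2* (0.062) and *Plek* (-0.30) with at least 1 read, for *Mycn* (0.95), *Ran* (0.020), *Sdha* (-0.16), *Fbl* (1.05) and *Ash1l* (0.14) with at least 2 genes, for *Ddx3y* (0.088) with a level above 4, for *Ezh2* (-0.60) as a ratio of mean CPM, and for *Uhrf1* (-0.071) and *Top2a* (-0.20) without C3, D4 and G9. The cause was not tested. Thinning, after which a single read passes the limit in every cell, also moved 5 negative cells to the positive group. No old cell expressed *Xist* without a Y-linked gene, so that setting removed none. No paired analysis was possible because each age is 1 mouse and no cell pairs with another. With 13 positive cells of 1 mouse, shares have wide intervals, and under 20 reads decide 5 of the cells.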
